A study of Mus musculus with 13 samples.

Results

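Type I and type III interferons are antiviral cytokines that induce a broad set of interferon-stimulated genes, and 35 of these genes were followed here across the colon and ileum of mice given vancomycin or no antibiotic. They were listed by gene symbol. On the array 33 of the 35 were measured, each by 1 probe set, among 19505 named genes on 19572 probe sets; Ifi44 and Ddx60 are not analysed here.

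The study profiled bulk RNA from the gut of female FVB mice, each bearing a mammary tumour of its own strain that expressed human HER2, so no group was free of tumour. The vancomycin group drank water with 200 mg/L of the antibiotic, starting at 4 weeks of age, and the other mice had none. Vancomycin is a glycopeptide antibiotic that acts mainly on Gram-positive bacteria and is poorly absorbed from the gut. The 13 arrays comprised colon with vancomycin (n = 3), ileum with vancomycin (n = 3), colon without antibiotic (n = 4) and ileum without antibiotic (n = 3). Animals were killed at 9 weeks, which the labels do not tie to age or to time on treatment. Replicates 11, 13 and 14 are the vancomycin arrays of both tissues. The arrays without antibiotic are replicates 1, 2, 3 and 5 of colon and 1, 2 and 3 of ileum, and values below follow these orders.

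Type I interferons (Ifna genes, Ifnb1) signal through Ifnar1 and Ifnar2 on nearly every cell, whereas type III interferons (Ifnl2, Ifnl3) use Ifnlr1 with Il10rb, a receptor largely found on epithelium. Both activate Jak kinases, which phosphorylate Stat2. It joins Irf9 in a complex that binds interferon-stimulated response elements in the promoters of target genes. In the gut, epithelial cells answer mainly to type III interferon and cells below the epithelium mainly to type I. Many of the same targets also respond to interferon gamma, which T and NK cells release.

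Promoter sequences are shown because the response element is where this complex meets its targets. The element's core, searched on both strands, is GAAA, any 2 bases and GAAA again (on the opposite strand TTTC, any 2 bases and TTTC), and matches are in capitals. Each is the 150 bases just before the start site in RefSeq (GRCm38.p6), read 5′ to 3′ in the direction of the gene. Ifit1, Isg15 and Rsad2 hold the element. Cmpk2, the next protein-coding gene to Rsad2, and Irf7 are shown because they had large differences below and no match.
Ifit1, chr19:34640739-34640888 (plus strand): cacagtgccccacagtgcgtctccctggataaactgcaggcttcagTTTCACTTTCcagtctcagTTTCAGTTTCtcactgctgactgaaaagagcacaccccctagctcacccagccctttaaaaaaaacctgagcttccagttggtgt
Isg15, chr4:156200819-156200968 (minus strand): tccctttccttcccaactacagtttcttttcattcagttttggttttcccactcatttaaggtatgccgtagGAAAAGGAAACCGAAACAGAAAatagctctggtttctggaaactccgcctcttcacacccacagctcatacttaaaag
Rsad2, chr12:26456453-26456602 (minus strand): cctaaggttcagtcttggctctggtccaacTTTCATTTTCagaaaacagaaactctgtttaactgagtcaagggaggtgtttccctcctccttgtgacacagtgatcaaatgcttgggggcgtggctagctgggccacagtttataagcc
Cmpk2, chr12:26469065-26469214 (plus strand): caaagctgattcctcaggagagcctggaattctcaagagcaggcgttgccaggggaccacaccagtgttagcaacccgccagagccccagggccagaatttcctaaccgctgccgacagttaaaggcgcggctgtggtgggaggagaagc
Irf7, chr7:141266425-141266574 (minus strand): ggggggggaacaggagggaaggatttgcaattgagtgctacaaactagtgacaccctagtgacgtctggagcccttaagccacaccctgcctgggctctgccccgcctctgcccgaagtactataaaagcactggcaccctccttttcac

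In Ifit1 the 2 matches lie on the opposite strand, with their first bases 104 and 85 bases before the start. Isg15 has 3 overlapping matches that begin 78, 72 and 66 bases before it, and Rsad2 has 1 on the opposite strand, 120 bases before it. The search covered 250 bases before to 50 after each start. Of the 33 members, 23 have entries in the RefSeq promoter table, with 27 promoters. The motif occurs in 12 of these 27 (44.4%), against 1131 of all 32851 promoters in the table (3.44%). Ifit3, Oas1a, Oas3, Stat2, Ifih1, Bst2, Trim30a and Ifitm3 also hold it. The motif is not particular to the members. It occurs in 23 of 53 promoters (43.4%) of the other interferon-stimulated genes listed below. Of the promoters of the interferon gamma targets listed below, 8 of 13 (61.5%) hold it. A match is a stretch of letters in this window and not a measured binding site.

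Values below are log2 expression on the authors' deposited scale, where a difference of 1 is nominally a 2-fold change. Array medians lay between 7.98 and 8.14. The array's 23 antigenomic background probe sets, which match no mouse sequence, had means between 3.52 and 8.52 and a median of 6.495, so they give no sharp limit of detection. For 25 of the 33 members every value was above the background median of its array. Oas2, Oasl1, Oasl2, Rsad2 and Ifi27l2a lay below it on every array of at least 1 group, and their log2 differences are those of the deposited values and no measure of how many-fold the RNA differed. The labelled tissues were borne out by their markers: 4 of 4 colon markers were higher and 6 of 6 ileum markers lower in colon than in ileum under both treatments. Ileum vancomycin replicate 11 stood apart. Its smooth muscle marker mean was 14.89, against 13.88 and 13.43 in replicates 13 and 14 and 13.29 to 13.44 without antibiotic. Its B cell marker mean was 9.92, against 7.57 and 7.19 in replicates 13 and 14 and 7.20 to 7.90 without antibiotic.

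Taken array by array, the mean over the 33 members was 8.16, 8.43 and 8.56 in colon with vancomycin, against 8.99, 8.81, 8.79 and 8.63 in colon without. In the ileum it was 8.79, 8.72 and 9.42 with vancomycin, against 9.54, 9.35 and 9.66 without. Each colon array with vancomycin lay below each colon array without, whereas ileum vancomycin replicate 14 lay above 1 of the untreated ileum arrays. Within the ileum vancomycin group, 26 of 33 members were above their group mean in replicate 14 and 5 in replicate 13, against 50.2% and 50.9% of all probe sets. Within the colon vancomycin group, 27 members were above it in replicate 14 and 7 in replicate 11, against 49.8% and 48.1% of all probe sets.

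**Figure D1:**
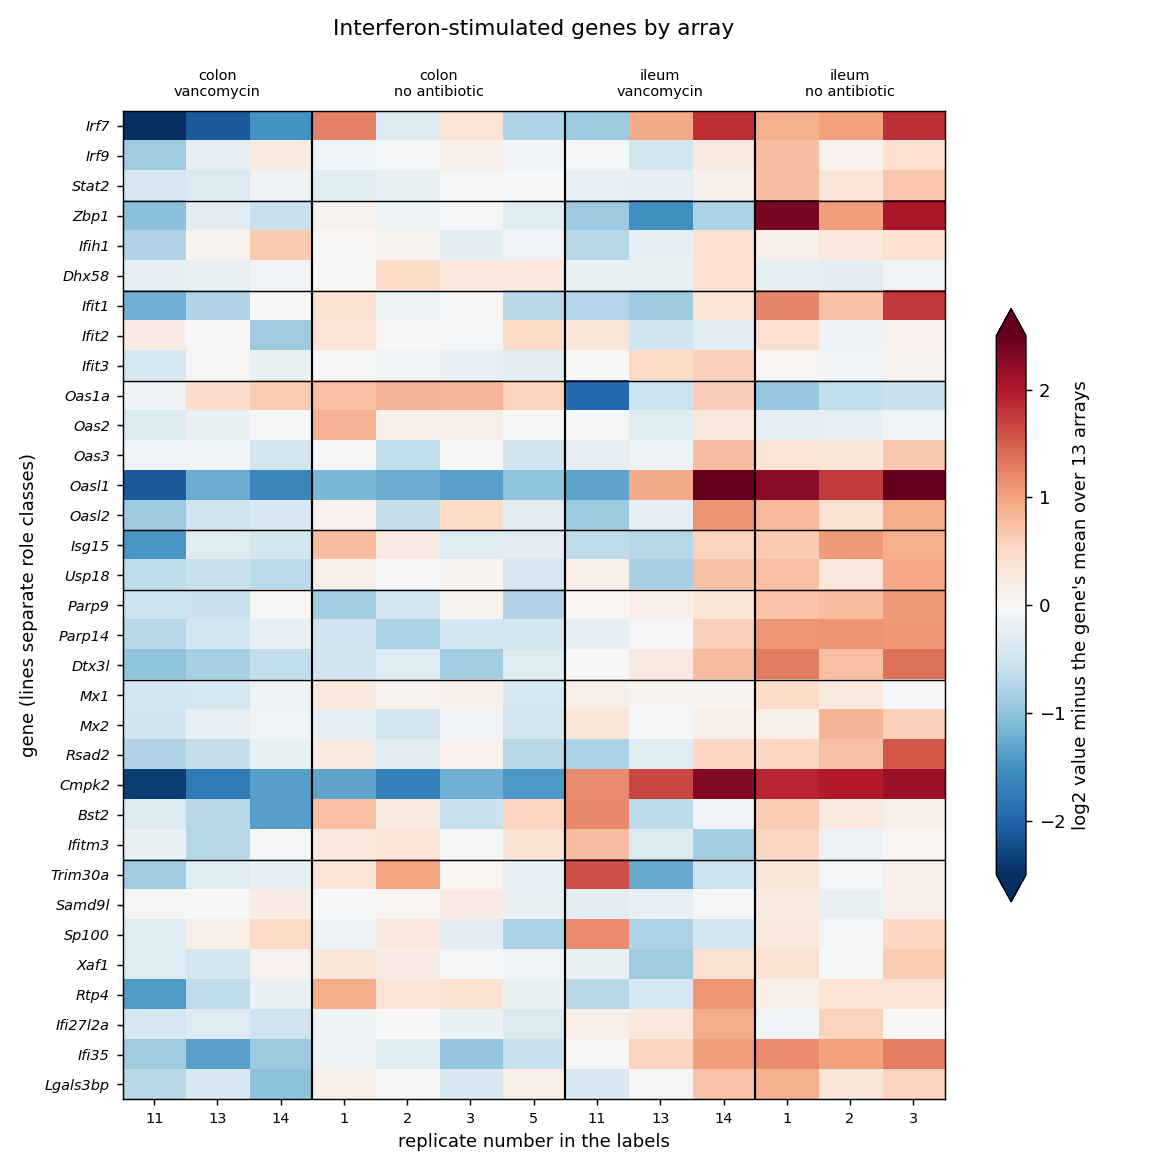
Heat map of the 33 members (rows, by role) in 13 arrays (columns, by group and replicate); colour is log2 expression minus the gene's mean over the 13 arrays, with the scale limited at both ends. Ileum vancomycin replicates 11 and 13 are paler or lower than replicate 14 for many members, while the Zbp1 row is low in all 3.

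The first comparison asks how vancomycin altered these genes in the ileum. Zbp1 and Parp14 were lower with vancomycin, by 7.41-fold and 2-fold. No member was higher, and the remaining 31 did not pass the threshold of adjusted p 0.05 (limma, Benjamini-Hochberg over 19572 probe sets). Over all probe sets, 0.536% were called, 0.485% lower and 0.0511% higher. Of the 33, 28 had a difference below 0 and 5 above it, against 45.8% below 0 over all probe sets. Their median was -0.45, against 0.02 over all. Leaving out 1 array at a time moved that median between -0.74, without ileum vancomycin replicate 14, and -0.28, without replicate 13. Unadjusted p was under 0.05 for 9 members, and for 1977 of all 19572 probe sets. With arrays weighted by their quality 10 members were called lower and 1 (Ifit3) higher. The groups did not overlap for 6 members, all lower with vancomycin (Ifit1, Isg15, Stat2, Zbp1, Parp9 and Parp14), against 8.34% lower and 8.57% higher without overlap among all probe sets. In bulk tissue, fewer cells of a type and less RNA per cell cannot be told apart.

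Zbp1 encodes a sensor of left-handed nucleic acid that can start necroptosis and inflammation. It had 8.06, 7.44 and 8.17 in the ileum with vancomycin, against 11.33, 10.00 and 11.01 without. All 3 vancomycin arrays, replicate 14 included, lay far below the lowest untreated array. The difference was -2.89 ± 0.30 (SE; adjusted p = 4.06e-04), with means of 7.89 ± 0.39 and 10.78 ± 0.69 (SD, n = 3 each). It passed the threshold in 12 of 12 alternative settings, with adjusted p between 1.69e-05 and 0.05.

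The PARP and Dtx3l members sit side by side on chromosome 16, with 0 protein-coding genes between neighbours. Parp14, an ADP-ribosyltransferase, had 10.14, 10.30 and 10.96 with vancomycin, against 11.47, 11.48 and 11.45 without. The untreated arrays were nearly identical and all lay above the vancomycin arrays. Its difference was -1.0 ± 0.20 (SE; adjusted p = 0.0451). That call held in 5 of 12 alternatives. It was lost on leaving out any of the 3 untreated arrays (adjusted p 0.173, 0.124 and 0.193), vancomycin replicate 11 (0.0925) or replicate 13 (0.15), in a fit of the ileum alone (0.234) and after renewed quantile normalization (0.0828).
Parp9, a partner of the ubiquitin ligase Dtx3l in interferon signalling, had 8.45, 8.57 and 8.69 with vancomycin, against 9.11, 9.18 and 9.46 without. The groups did not overlap, and the difference of -0.68 ± 0.23 did not pass (adjusted p = 0.316). Dtx3l itself differed by -0.80 ± 0.23 (adjusted p = 0.193).

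Among the transcription factors, Stat2 had 10.45, 10.41 and 10.77 in the ileum with vancomycin, against 11.41, 10.97 and 11.34 without. The groups were separate, and the difference of -0.70 ± 0.16 fell short of the threshold (adjusted p = 0.0881). Irf9 had 9.77, 9.32 and 10.02 with vancomycin, against 10.56, 9.89 and 10.19 without, and its groups overlapped (-0.51 ± 0.26, adjusted p = 0.532). Irf7, the amplifier of Ifna transcription, had 9.57, 11.45 and 12.33 with vancomycin, against 11.40, 11.52 and 12.32 without. Only replicate 11 was low. Its difference of -0.63 ± 0.61 (adjusted p = 0.756) became 0.14 without that array.

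Of the effectors, Ifit1, which binds viral RNA lacking the host cap methylation, had 6.96, 6.78 and 8.01 with vancomycin, against 8.91, 8.42 and 9.46 without. Replicate 14 came closest to the untreated arrays but stayed below them. The difference was -1.68 ± 0.38, a 3.2-fold lower mean, with adjusted p = 0.0742. It passed in 2 of 12 alternatives, with array weights (-1.94, adjusted p = 0.00223) and without vancomycin replicate 14 (-2.06, adjusted p = 0.0288). Isg15, a ubiquitin-like modifier, had 7.18, 7.11 and 8.38 with vancomycin, against 8.48, 8.89 and 8.73 without. The groups were separate by a narrow margin at replicate 14, and the difference was -1.14 ± 0.38 (adjusted p = 0.299). Mx1, an antiviral GTPase, had 7.63, 7.55 and 7.55 with vancomycin, against 7.96, 7.73 and 7.46 without, with overlapping groups (-0.14 ± 0.19, adjusted p = 0.84). Differences of the other members ran between -1.54 (Oasl1) and 0.35 (Ifit3). Ifit3 shares a near-identical copy in the mouse genome, which an array probe may not separate from it.

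**Figure D2:**
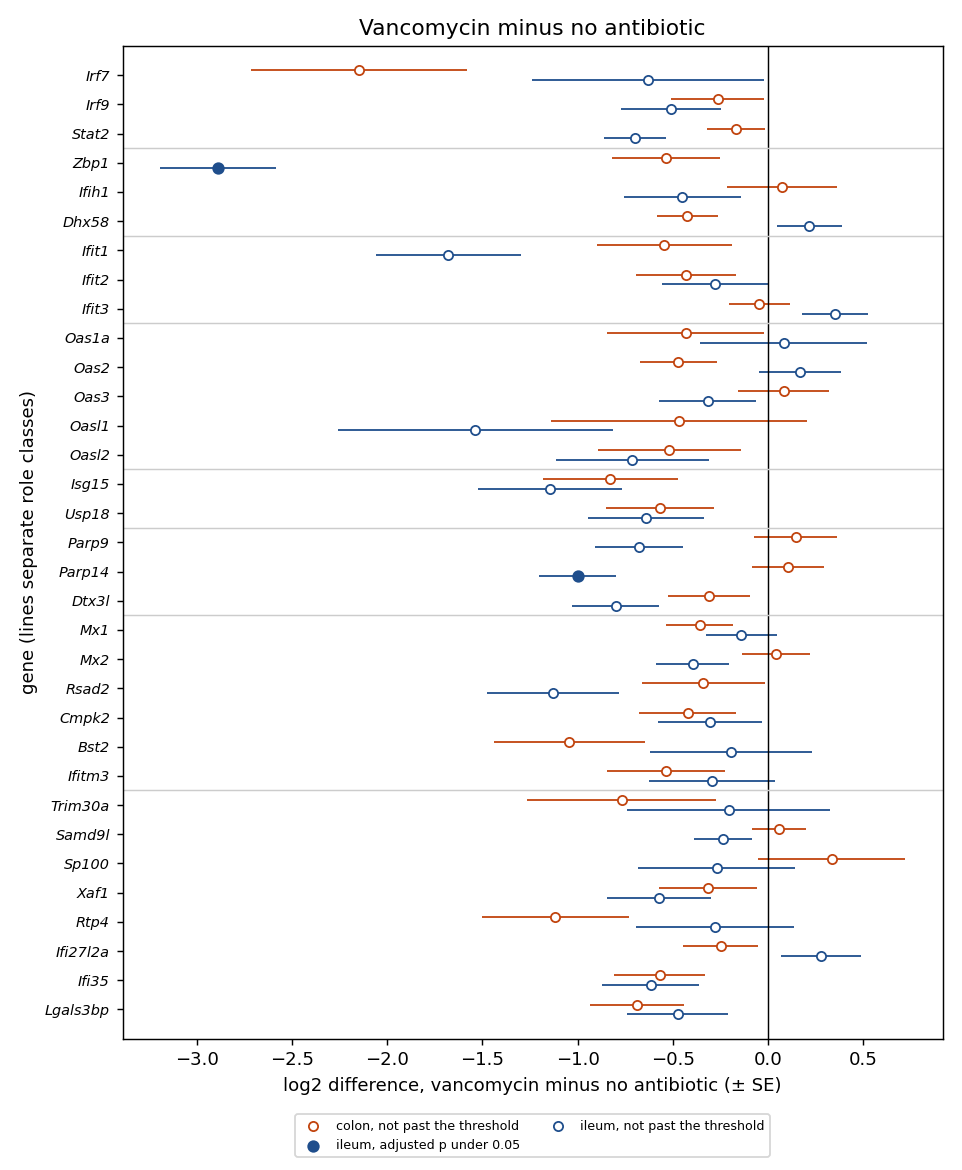
Log2 difference, vancomycin minus no antibiotic, for each member in the ileum and the colon; points are limma estimates, bars their SE, and filled points have adjusted p under 0.05. Filled points are Zbp1 (-2.89) and Parp14 (-1.0) in the ileum, and most points of both tissues lie left of 0.

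Some interferon gamma targets and T and NK cell markers were also lower in the ileum with vancomycin. Of 17 measured genes known chiefly as interferon gamma targets, 5 fell and 17 of 17 were below 0, with a median of -1.23. Over all probe sets 0.485% were called lower and 45.8% were below 0. The gamma targets that fell included Ubd (-3.69 ± 0.33, adjusted p = 2.43e-04) and Igtp (-4.10 ± 0.44, adjusted p = 4.56e-04). Of 14 T and NK cell markers 5 fell, with a median of -1.04. Among the 14, 11 were below 0 and 3 above it, up to 0.55. The mean over the list was 8.82, 8.14 and 8.74 with vancomycin against 9.85, 9.66 and 9.55 without. Nkg7, a cytotoxic granule protein, differed by -1.83 ± 0.19 (adjusted p = 4.06e-04). The 9 B cell markers had 0 calls (0 with unadjusted p under 0.05) and 9 of 9 differences above 0, with a median of 0.52. Their mean was 9.92, 7.57 and 7.19 with vancomycin, against 7.66, 7.20 and 7.90 without. Only replicate 11 was above the untreated range. The 10 smooth muscle markers had 0 calls (3 with unadjusted p under 0.05) and 10 of 10 above 0, with a median of 0.72. Of these 10, 5 were higher without overlap, against 8.57% of all probe sets. The smooth muscle mean was above the untreated range in replicates 11 and 13 and inside it in replicate 14. Epithelial markers averaged 15.51, 15.96 and 16.00 with vancomycin, against 15.93, 15.89 and 15.92 without. The part of these shifts in the values of Zbp1, Parp14 and Ifit1 was not tested.

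The second comparison asks the same of the colon, where no member passed the threshold. Over all probe sets 0.0102% passed. Unadjusted p was under 0.05 for 8 of the 33 members, and for 3107 of all 19572 probe sets. Of the 33 members 26 were below 0 and 7 above, against 46.9% below 0 over all probe sets. The median was -0.42, against 0.02 over all. It moved between -0.51, without colon vancomycin replicate 14, and -0.27, without replicate 11. The groups did not overlap for 7 members, all lower with vancomycin (Oas2, Irf7, Usp18, Dhx58, Rtp4, Trim30a and Lgals3bp), against 5.57% lower and 6.72% higher without overlap among all probe sets.

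Irf7 had the largest difference of the 33 members in the colon. It had 7.99, 8.40 and 9.01 with vancomycin, against 11.75, 10.14, 10.85 and 9.72 without. The highest vancomycin array stayed below the lowest untreated array, and the untreated arrays themselves spanned more than the vancomycin ones. The difference was -2.15 ± 0.57, a 4.43-fold lower mean, with adjusted p = 0.139. Rtp4, which helps bring receptors to the cell surface, had 9.23, 10.02 and 10.46 with vancomycin, against 11.58, 10.98, 11.03 and 10.49 without. Its groups nearly met without overlapping, at -1.12 ± 0.39 (adjusted p = 0.202).

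Lgals3bp, a secreted glycoprotein that binds galectins, had 8.44, 8.75 and 8.11 with vancomycin, against 9.28, 9.16, 8.76 and 9.29 without (-0.69 ± 0.25, adjusted p = 0.216). Vancomycin replicate 13 and untreated replicate 3 nearly met. Dhx58, a regulator of the RNA sensors of the RIG-I family, had 7.64, 7.71 and 7.81 with vancomycin, against 7.91, 8.36, 8.16 and 8.15 without, a separate but small difference (-0.42 ± 0.16, adjusted p = 0.231). Isg15 had 6.37, 7.53 and 7.37 with vancomycin, against 8.60, 8.03, 7.50 and 7.54 without. These groups overlapped only through vancomycin replicate 13 and untreated replicate 3 (-0.83 ± 0.35, adjusted p = 0.278).

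For Ifit1 the colon values were 6.48, 6.94 and 7.67 with vancomycin, against 8.06, 7.55, 7.70 and 6.99 without, and the groups overlapped (adjusted p = 0.471). Mx1 had 7.0, 7.05 and 7.35 with vancomycin, against 7.75, 7.57, 7.60 and 7.05 without, again overlapping (-0.36 ± 0.18, adjusted p = 0.336). Stat2 differed by -0.17 ± 0.15 (adjusted p = 0.617), with overlapping groups. Irf9 had 8.90, 9.56 and 10.03 with vancomycin, against 9.68, 9.74, 9.92 and 9.70 without. Its difference of -0.26 ± 0.24 (adjusted p = 0.629) rested on the low replicate 11 and was 0.035 without it. The other members ran between -1.04 (Bst2) and 0.33 (Sp100).

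In the colon the 17 interferon gamma targets had 0 calls (3 with unadjusted p under 0.05) and a median of 0.05, and the 14 T and NK cell markers had 0 calls (0 with unadjusted p under 0.05) and a median of 0.05. The T and NK cell mean was 6.97, 7.20 and 7.37 with vancomycin, against 7.20, 7.37, 6.88 and 7.15 without.

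**Figure D3:**
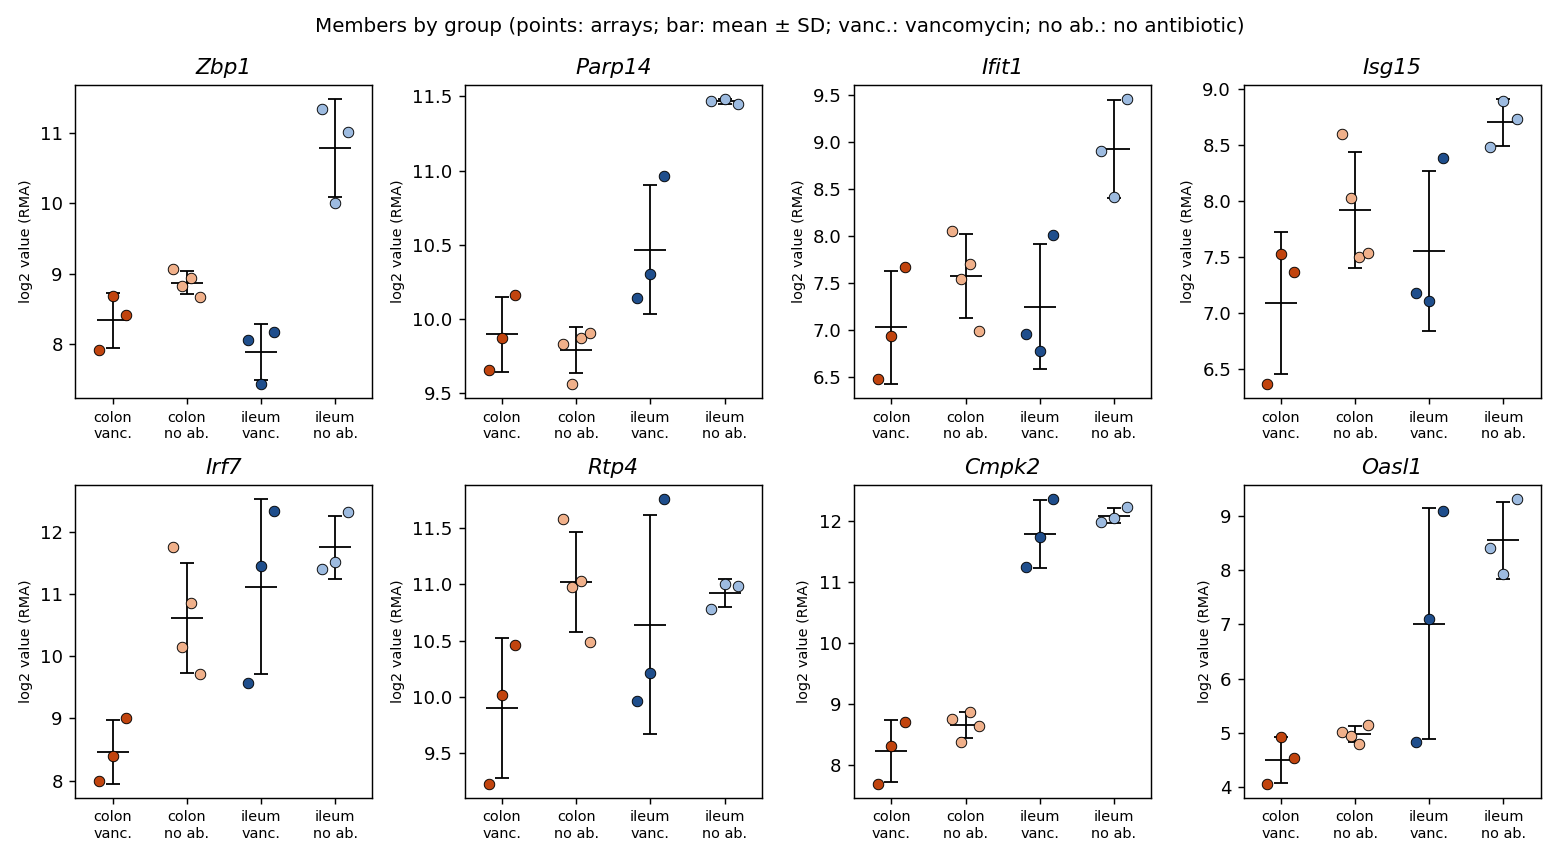
Log2 expression of 8 members in each array, by group, with the mean and SD as bars. Zbp1 and Parp14 are lower in the ileum with vancomycin than without, Irf7 and Rtp4 are lower in the colon with vancomycin without overlap, and Cmpk2 and Oasl1 differ mainly by tissue.

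Whether the vancomycin effect differed between the tissues was tested as the ileum effect minus the colon effect. Zbp1 passed, with -2.36 ± 0.42 (adjusted p = 0.0409), where 0.189% of all probe sets were called, 0.158% below 0 and 0.0307% above. Its colon values were 7.92, 8.69 and 8.41 with vancomycin, against 9.06, 8.83, 8.94 and 8.67 without, and overlapped at 1 array (-0.54 ± 0.28, adjusted p = 0.369). The call on the difference held in 7 of 19 alternatives. It was lost with the replicate number as a fixed block (-2.29, adjusted p = 0.114) and kept with it as a random block (-2.35, adjusted p = 0.0238). It was also lost on leaving out any of 10 of the 13 arrays, with differences between -2.50 and -2.08. It was kept without colon vancomycin replicate 11, ileum vancomycin replicate 11 or ileum replicate 2 without antibiotic. Unadjusted p was under 0.05 for 7 members, and for 1567 of all 19572 probe sets.

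For Parp14 the colon values were 9.65, 9.87 and 10.16 with vancomycin, against 9.83, 9.56, 9.87 and 9.90 without, a difference of 0.10 ± 0.19. The 2 tissue effects differed by -1.10 ± 0.27 (adjusted p = 0.199), which passed with array weights (adjusted p = 0.0253) and without ileum vancomycin replicate 14 (0.0448). Parp9 differed by -0.82 ± 0.32 (adjusted p = 0.503) and Dhx58 by 0.64 ± 0.23 (adjusted p = 0.48). For Irf7, whose ileum and colon effects were -0.63 and -2.15, the gap was 1.52 ± 0.83 (adjusted p = 0.69). Over the 33 members the median gap was -0.20, against 0.00 over all probe sets, with 19 below 0 and 14 above. Below 0 were 49.4% of all probe sets.

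The tissues were then compared within each treatment. Under vancomycin 7 members were lower in colon (Cmpk2, Oasl1, Dtx3l, Ifi35, Irf7, Ifi27l2a and Ifit3) and none was higher, against 15.1% of all probe sets, 7.67% lower and 7.45% higher. The groups did not overlap for 8 members lower in colon and 1 higher (Samd9l), against 12.1% and 15.3% of all probe sets. Below 0 were 27 of 33 members and 44.7% of all probe sets. That median was -0.42, against 0.04 over all, and ran between -0.55, without colon vancomycin replicate 14, and -0.18, without ileum vancomycin replicate 14. Without antibiotic, 13 members differed: Oas1a was higher in colon and 12 were lower (Ifit1, Oas3, Oasl1, Mx2, Rsad2, Cmpk2, Stat2, Zbp1, Ifi35, Parp9, Parp14 and Dtx3l). Over all probe sets 20.5% differed, 11% higher and 9.59% lower. The groups did not overlap for 3 members higher in colon (Oas1a, Oas2 and Dhx58) and 15 lower, against 18.1% and 14.1% of all probe sets. Below 0 were 26 of 33 members and 45.3% of all probe sets. The median was -0.61, against 0.04 over all probe sets, and ran between -0.68 and -0.47 on leaving out 1 array.

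Cmpk2, a mitochondrial nucleotide kinase, had a wide tissue gap under both treatments. Under vancomycin it had 7.70, 8.31 and 8.71 in colon, against 11.26, 11.74 and 12.37 in ileum. Without antibiotic it had 8.76, 8.38, 8.87 and 8.64 in colon, against 11.99, 12.06 and 12.23 in ileum. The tissues were far apart in both sets. Colon was lower by 11.7-fold under vancomycin (-3.55 ± 0.27, adjusted p = 5.31e-07) and by 10.8-fold without antibiotic (-3.43 ± 0.26, adjusted p = 2.84e-07). Rsad2, its neighbour on chromosome 12 and the source of the antiviral nucleotide ddhCTP, did not pass under vancomycin (-0.31, adjusted p = 0.628) and was lower in colon without antibiotic (-1.10 ± 0.32, adjusted p = 0.0252). The Rsad2 call was lost without colon replicate 2 or 5 or ileum replicate 3, and 12 of the 13 Rsad2 values, all those of colon included, were below the background median.

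Oasl1, a restraint on Irf7 translation in mice, had 4.07, 4.92 and 4.54 in colon with vancomycin, against 4.84, 7.10 and 9.09 in ileum with vancomycin. The 3 ileum arrays spread over more than 4 log2 units, and replicate 11 fell inside the colon range. Without antibiotic Oasl1 had 5.02, 4.94, 4.80 and 5.15 in colon, against 8.41, 7.92 and 9.31 in ileum, with no overlap. All 7 colon values, and ileum vancomycin replicate 11, were below the background median, so the colon has no level above background to set against the ileum. The difference between the deposited values was -2.50 ± 0.72 under vancomycin (adjusted p = 0.0298) and -3.57 ± 0.67 without antibiotic (adjusted p = 0.00153). Leaving out any 1 of 5 of the 6 arrays ended the call under vancomycin, and without ileum replicate 14 the difference was -1.46.

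Ifi35, which binds interferon-induced partners in the cytoplasm, had 10.63, 10.17 and 10.59 in colon with vancomycin, against 11.54, 12.08 and 12.57 in ileum with vancomycin (-1.60 ± 0.26, adjusted p = 5.42e-04). In mice without antibiotic it had 11.40, 11.21, 10.55 and 10.97 in colon, against 12.70, 12.55 and 12.79 in ileum (-1.65 ± 0.24, adjusted p = 1.71e-04). Colon lay below ileum in every array of both treatments. Dtx3l had 9.93, 10.10 and 10.31 in colon with vancomycin, against 10.93, 11.16 and 11.73 in ileum with vancomycin (-1.16 ± 0.23, adjusted p = 0.00284). Its values without antibiotic were 10.43, 10.61, 10.06 and 10.60 in colon, against 12.23, 11.69 and 12.30 in ileum (-1.65 ± 0.21, adjusted p = 6.57e-05). Again no colon array reached an ileum array.

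Irf7 passed under vancomycin, where its colon values of 7.99 to 9.01 all lay below the ileum values of 9.57 to 12.33 (-2.65 ± 0.61, 6.28-fold lower, adjusted p = 0.00782). Without antibiotic it did not pass (-1.13 ± 0.57, adjusted p = 0.201). Ifi27l2a (-0.86 ± 0.21, adjusted p = 0.0119) and Ifit3 (-0.56 ± 0.17, adjusted p = 0.0416) were called only under vancomycin, and no member but Zbp1 passed the test of the difference between the treatments' tissue gaps, which is the tissue-dependence test given above. Ifi27l2a was below the background median on all colon arrays and on 2 of the 3 ileum arrays of each treatment, and it lost its call without ileum vancomycin replicate 14. Ifit3 lost its call on leaving out 4 of the 6 arrays (colon replicate 11 or 14, ileum replicate 13 or 14).

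Zbp1 differed between colon and ileum by 0.45 ± 0.30 under vancomycin (adjusted p = 0.387), and it was lower in colon without antibiotic (-1.91 ± 0.28, adjusted p = 2.24e-04). For Parp14 the difference under vancomycin was -0.57 ± 0.20 (adjusted p = 0.074), which passed with the replicate number as a fixed block (adjusted p = 0.0331) or as a random block (0.0497). Without antibiotic Parp14 was lower in colon (-1.68 ± 0.19, adjusted p = 1.65e-05). Parp9 (-1.36 ± 0.22, adjusted p = 3.84e-04), Mx2 (-0.84 ± 0.18, adjusted p = 0.00374) and Stat2 (-0.73 ± 0.15, adjusted p = 0.00318) were lower in colon without antibiotic in the main fit and in 14 of 14 alternatives, as were Zbp1, Parp14, Cmpk2, Dtx3l and Ifi35.

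Oas1a, a synthetase of the messenger that activates RNase L, ran the other way. Under vancomycin it had 9.46, 10.02 and 10.21 in colon, against 7.64, 9.04 and 10.20 in ileum, where replicate 14 reached the colon level and the difference did not pass (0.94, adjusted p = 0.19). Without antibiotic it had 10.34, 10.42, 10.41 and 10.15 in colon, against 8.64, 8.96 and 9.03 in ileum (1.45 ± 0.41, adjusted p = 0.0209). The colon arrays were tightly grouped and all above the ileum arrays. The call without antibiotic was lost on leaving out any of the 3 ileum arrays, with adjusted p up to 0.0844. The Ifit1 difference without antibiotic (adjusted p = 0.0139) was lost without ileum replicate 3, and that of Oas3 (-0.73 ± 0.24, adjusted p = 0.0429) without colon replicate 2 or 5 or any ileum array.

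The T and NK cell markers also differed by tissue. Under vancomycin 8 of 14 were lower in colon, with a median of -1.11, against 7.67% lower over all probe sets. Without antibiotic 11 of 14 were lower, with a median of -2.21, against 9.59% over all probe sets. Smooth muscle markers ran the opposite way without antibiotic, with 8 of 10 higher in colon and a median of 1.30, against 11% of all probe sets. Under vancomycin 1 of the 10 was higher, with a median of 0.65, against 7.45% of all probe sets. Of the 17 interferon gamma targets, 12 were lower in colon without antibiotic, with a median of -1.40, against 9.59% over all probe sets. Under vancomycin 1 of the 17 was lower, with a median of -0.13, against 7.67%. The part of these markers and gamma targets in the members' tissue differences was not tested.

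**Figure D4:**
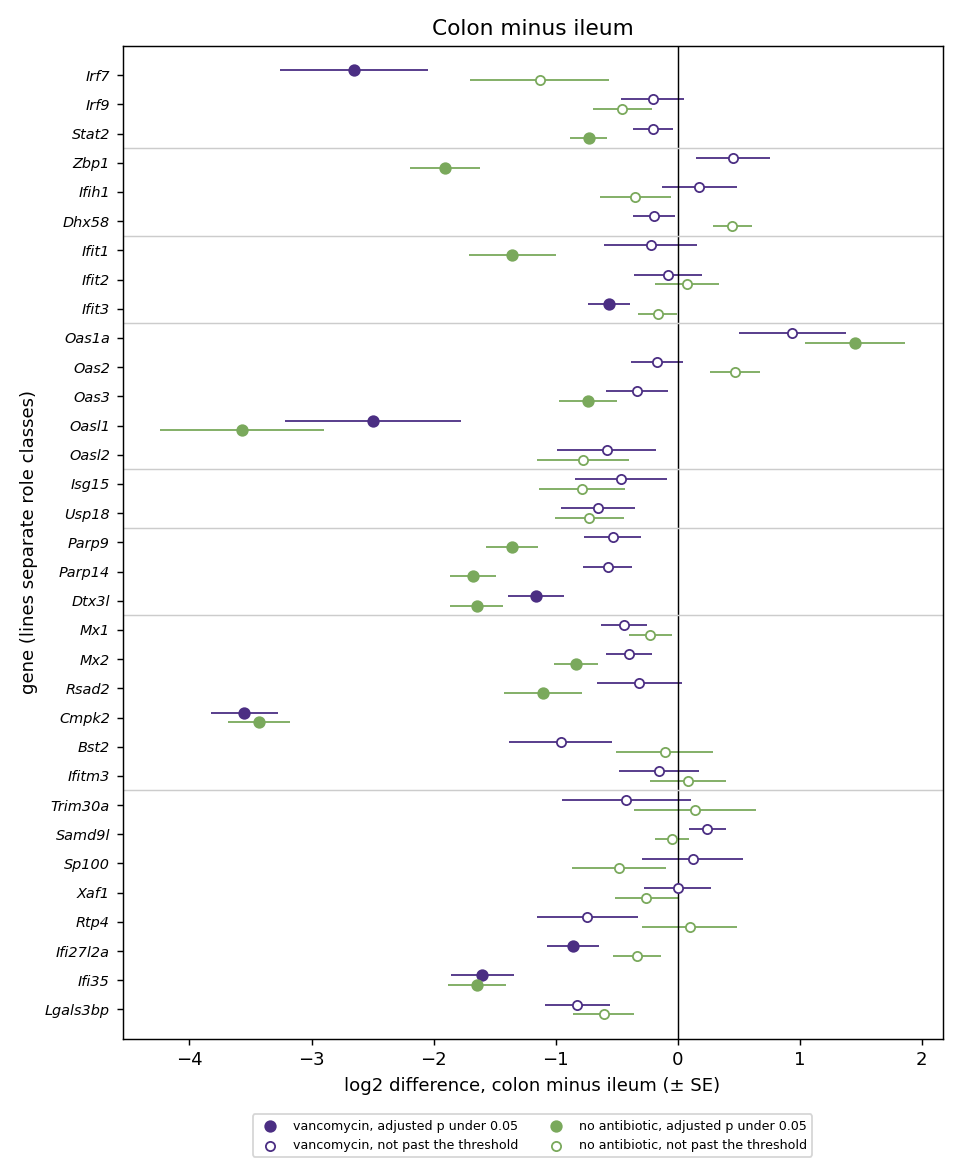
Log2 difference, colon minus ileum, for each member under vancomycin (upper point) and without antibiotic (lower point); bars are SE and filled points have adjusted p under 0.05. Cmpk2 lies near -3.5 in both, Zbp1 is at -1.91 only without antibiotic, and Oas1a is the filled point right of 0.

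Upstream parts of the pathway had few calls for vancomycin against no antibiotic. Of 17 measured interferon ligand genes, none passed in either tissue with vancomycin (limma). Unadjusted p was under 0.05 for 0 in the ileum and 5 in the colon, against 1977 and 3107 of all 19572 probe sets. The medians were 0.00 in the ileum and 0.21 in the colon. Ifnb1 differed by -0.11 in the ileum and -0.03 in the colon, Ifnl2 by 0.06 and 0.25, and Ifnl3 by 0.00 and 0.28. The mean over the 17 ligand genes ran between 6.47 and 6.93 by array, near the background median of 6.495. Small differences at that level do not show that ligand expression was unchanged. Ifna genes are a near-identical family whose probes may not be separable. The 6 receptor genes had 0 calls in each of the 5 comparisons. For colon minus ileum, 6 of 6 were below 0 under vancomycin and 5 of 6 without antibiotic, against 44.7% and 45.3% of all probe sets. Groups were lower in colon without overlap for 1 and 3 of the 6, against 12.1% and 14.1%. With vancomycin Ifnar1 differed by -0.01 in the ileum and -0.19 in the colon, Ifnar2 by 0.33 and -0.58, and Ifnlr1 by -0.11 and 0.01. Ifng, the interferon gamma gene, differed by -0.31 ± 0.18 in the ileum (adjusted p = 0.594).

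Among 15 signalling genes, which include Irf7, Irf9 and Stat2, Irf8 fell in the ileum (-1.41 ± 0.24, adjusted p = 0.0148). Irf8 is a transcription factor of myeloid and lymphoid cells. Irf1, an early target of interferon gamma, differed by -1.23 ± 0.29 (adjusted p = 0.0868). Of 14 nucleic acid sensing genes, Ifih1 and Dhx58 among them, none passed in the ileum or the colon, at 3 and 4 with unadjusted p under 0.05. Cgas, the cytosolic DNA sensor, differed by -0.59 ± 0.15 in the ileum (adjusted p = 0.129) and -0.68 ± 0.14 in the colon (adjusted p = 0.0968). The chemokine Cxcl10 differed by -0.30 in the ileum (adjusted p = 0.548) and 0.15 in the colon (adjusted p = 0.648). Between the tissues there were more calls. Without antibiotic 4 of the 15 signalling genes and 5 of the 14 sensing genes were lower in colon, against 9.59% of all probe sets. Under vancomycin 2 of each list were lower, against 7.67%, and 1 signalling gene was higher, against 7.45%.

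A further list of 42 interferon-stimulated genes had 3 lower calls and none higher in the ileum, against 0.485% lower over all probe sets. The list's median in the ileum was -0.20. In the colon the list had 0 calls (4 with unadjusted p under 0.05) and a median of -0.02. For colon minus ileum without antibiotic, 11 of the 42 were lower and 6 higher (median -0.26), against 9.59% and 11% of all probe sets. Under vancomycin 3 were lower and 3 higher (median 0.045), against 7.67% and 7.45%. Ifit1bl1, a relative of Ifit1, had 11.02, 10.65 and 11.17 in the ileum with vancomycin, against 14.13, 13.13 and 13.63 without. The groups were far apart (-2.68 ± 0.38, adjusted p = 0.00356), and the ileum effect differed from the colon effect (-2.89 ± 0.52, adjusted p = 0.0409). Uba7, the enzyme that activates Isg15, fell in the ileum by 1.13 ± 0.20 on the log2 scale (adjusted p = 0.0203).

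**Figure D5:**
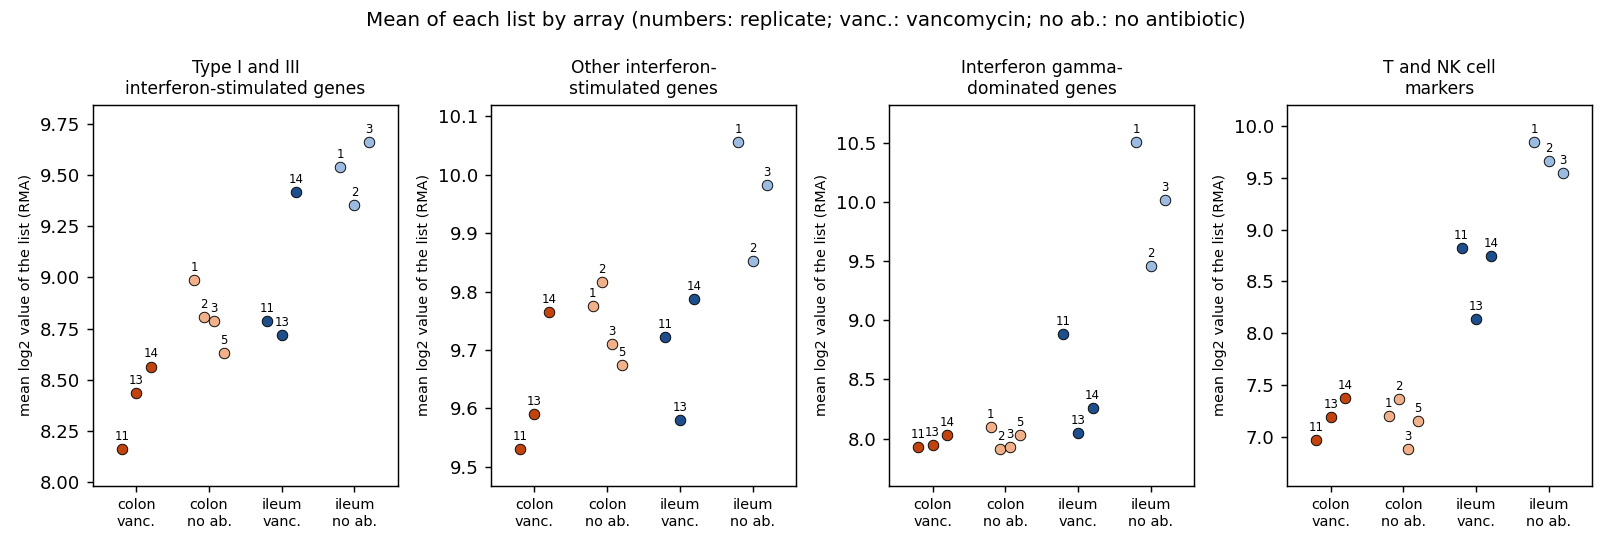
Mean log2 expression per array over the 33 members, 42 other interferon-stimulated genes, 17 interferon gamma targets and 14 T and NK cell markers, by group. In the ileum the gamma targets lie between 8.05 and 8.88 with vancomycin and between 9.46 and 10.51 without, while the members with vancomycin (8.72 to 9.42) reach the untreated range (9.35 to 9.66) at 1 array.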

How the data were processed

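RNA from colon and ileum was hybridised to 1-colour Affymetrix mouse arrays. The deposited values are log2 expression per probe set, which the authors computed by RMA; the submitters' processing notes also name version 1.4.1.46 of Affymetrix Expression Console, without its role. RMA equalises the arrays' distributions, so a shift common to most genes cannot be seen. Values ran between 3.01 and 18.25. No detection calls were used, and precision is limited by the number of arrays. Of 28846 probe sets, 19572 had 1 gene symbol in the platform annotation and 9274 none here.

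All 13 arrays were fitted to a mean per group (lmFit and eBayes of limma 3.58.1 under R 4.3.3), with Benjamini-Hochberg adjustment over 19572 probe sets and a threshold of 0.05. The fit was tested on simulated data with 200 changed genes. Where a gene has several probe sets the one with the highest mean was used. The members and lists were chosen with earlier results of these data known. Members were named with values when past the threshold, among the 4 smallest p-values of a comparison, or as Ifit1, Isg15, Irf7, Stat2, Irf9 and Mx1. Whether each array is a separate mouse is not in the labels; p-values therefore reflect only the spread among these samples, which may be technical. The labels give no batch, cage or date.

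Replicate numbers are shared by the tissues within a treatment. Deviations of same-numbered arrays correlated at 0.236, 0.176 and 0.107 under vancomycin, and at 0.0754, 0.0302 and -0.0162 without antibiotic. Those of differently numbered arrays ran between -0.227 and 0.149 under vancomycin and between -0.0849 and 0.162 without antibiotic. These ranges overlap, so the correlations do not settle whether the numbers pair the tissues. The main fit used no pairing, and the replicate block of the alternatives was applied to both treatments. Alternatives were fits of only the groups compared, array weights, renewed quantile normalization, a filter on the dimmest 33.3% of probe sets, robust trended eBayes, the replicate block, and each array left out.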

Additional observations from a re-analysis of the deposited data

Results flagged for a closer look

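Zbp1 had a vancomycin effect that differed between the tissues: the ileum effect minus the colon effect was -2.355 on the log2 scale (adjusted p = 0.0409, limma). Its 3 ileum arrays with vancomycin lay below all 3 without, and its colon groups overlapped at 1 array. The call held in only 7 of 19 alternatives. It was lost with the replicate number as a fixed block (-2.29, adjusted p = 0.114) and kept with it as a random block (adjusted p = 0.0238).

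Oas2, a synthetase of the RNase L activator, had 1 array far from the rest of its group. Of the 4 colon arrays without antibiotic, replicate 1 had 5.49 and the others 4.75, 4.76 and 4.62, a gap above Dixon's critical value for 4 samples. All 13 Oas2 values were below the median of the background probe sets. Chance places about 1 in 20 groups past that value, and each member's 4-array group was examined.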

How the results depend on the processing

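The count of members called in the ileum was 2, against 1 when only the ileum arrays were fitted, 11 with array weights (1 higher, 10 lower), 1 after renewed quantile normalization, and 1 to 4 on leaving out 1 array. The array weights ran between 0.302 for ileum vancomycin replicate 11 and 3.79 for replicate 13. The ileum median of -0.45 ran between -0.74 and -0.28 on leaving out 1 array. Irf7 in the ileum (-0.63) ran between -1.24 and 0.14 (adjusted p = 0.957) on leaving out 1 array, reversing without vancomycin replicate 11, and Irf9 in the colon (-0.26) between -0.53 and 0.035 (adjusted p = 0.95), reversing without colon vancomycin replicate 11; the cause was not tested. The count of members whose effects differed between tissues was 1, against 2 with array weights, 0 after quantile normalization, 0 with the fixed replicate block (Zbp1 -2.29, adjusted p = 0.114), 1 with the random one and 0 to 1 on leaving out 1 array, and its median of -0.20 ran between -0.37 and -0.06. The count of 7 members for colon minus ileum under vancomycin was 4 when only those groups were fitted, 8 with the fixed replicate block, 9 with the random one and 5 to 9 on leaving out 1 array, and its median of -0.42 was -0.17 with array weights and ran between -0.55 and -0.18 on leaving out 1 array. The colon count stayed at 0 on leaving out 1 array, with a median between -0.51 and -0.27. Without antibiotic the tissue count of 13 ran between 9 and 14 and the median between -0.68 and -0.47. Under vancomycin the fixed replicate block added the tissue call of Parp14 and the random block those of Parp14 and Lgals3bp (-0.82, adjusted p = 0.0399). Each member has 1 probe set, so the choice of probe set changed nothing. The filter on dim probe sets left 13048, with 27 of the 33 members and without Oas2, Oas3, Oasl1, Oasl2, Rsad2 and Ifi27l2a, and the tissue counts were then 6 under vancomycin and 10 without antibiotic. With 3 or 4 arrays a group, a call that fails does not show that a member was unchanged.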
